A study of Mus musculus with 18 samples.

Results

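The comparison described here asked for which genes the effect of losing Egln1 differed between soleus and quadriceps of the same mice. Soleus, in the calf, works slowly and for long spells in standing, while quadriceps, in the thigh, is made mainly of fast fibres. For each animal and gene, the log2 value in quadriceps was subtracted from that in soleus. These within-animal differences were then compared between 3 KO and 3 WT animals. The result is called the difference of KO effects: it equals KO minus WT in soleus less KO minus WT in quadriceps, and a positive value means that the KO effect was more positive in soleus. It uses 12 of the 18 Affymetrix arrays of the series, from 6 animals if the numbers in the sample descriptions, which each join 1 array of soleus with 1 of quadriceps, are animal numbers. The 6 heart arrays came from a separate drug experiment and took no part.

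The 4 groups were KO soleus, WT soleus, KO quadriceps and WT quadriceps, with 3 arrays each. KO mice had a floxed EglN1 locus and an inducible Cre recombinase active in skeletal muscle, with tamoxifen as the inducer. WT mice carried that recombinase with an intact EglN1 locus. Mice of both genotypes had been back-crossed to C57BL/6 and received tamoxifen for 3 days before the muscles were taken, so the recombinase and the drug do not distinguish the groups. The sources used here do not name the promoter of the recombinase, the ages of the mice or the deleted part of the gene. RNA came from homogenised tissue, which holds vessel, nerve, connective tissue and blood cells beside muscle fibres.

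EglN1, also called PHD2, uses oxygen to hydroxylate HIF-alpha, the regulated subunit of the hypoxia-inducible factors (HIF), which the von Hippel-Lindau ligase then sends to the proteasome. When the enzyme is lost or oxygen is scarce, these proteins persist, pair with ARNT and bind a short DNA core, near genes of glucose uptake, glycolysis, blood vessel growth and mTORC1 inhibition. Slow muscle fibres rely on mitochondria and burn much fatty acid, whereas fast fibres of the IIB type rely on glycogen and glycolysis.

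The values are log2 probe set summaries, so 1 unit is a doubling. Array medians lay between 6.68 and 6.74, and arrays of 1 group correlated at r between 0.994 and 0.997 across genes. Genes were tested if their mean over the 12 arrays reached 6.54, the 40th percentile, which left 11963 of 19938 genes. With 3 animals per genotype the number of arrays limits the precision: the median standard error (SE) of a difference of KO effects was 0.0953. No exact permutation test of 3 against 3 animals can go below p = 0.1, so the p-values given here come from limma, which pools the spread over genes. They weigh a difference against the spread between these 6 animals, moderated by that of other genes. For KO minus WT within a muscle, the fit takes 1 spread per gene over both muscles, also where the muscles vary unequally, as for Myh7.

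Egln1 itself was read in every array first. In soleus it stood at 11.03, 11.07 and 11.12 in KO animals, against 11.29, 11.22 and 11.31 in WT animals. In quadriceps it stood at 10.87, 10.67 and 10.93 in KO animals, against 10.95, 10.94 and 10.98 in WT animals. KO arrays lay below WT arrays in both muscles, but KO minus WT did not pass in either (limma adjusted p = 0.399 in soleus and 0.436 in quadriceps). Whether the probe set reads the deleted part of the transcript is not known here, so this is no full check of the genotype labels. The within-animal differences, 0.17, 0.39 and 0.19 in KO animals and 0.34, 0.28 and 0.33 in WT animals, overlapped. The difference of KO effects for Egln1 was -0.06, with a 95% interval of -0.26 to 0.13.

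The muscle labels were checked against fibre markers. Myh7, the slow myosin heavy chain, read 13.36 to 13.40 in KO soleus and 13.30 to 13.47 in WT soleus. In quadriceps it read 6.60, 9.39 and 6.86 in KO animals and 6.78, 8.60 and 7.08 in WT animals, so that soleus was higher in all 6 animals. The quadriceps of KO animal 2245 and WT animal 2257 stood apart as the highest in slow fibre genes. The mean of 17 slow fibre genes was 8.004, 9.23 and 8.46 in KO quadriceps and 8.05, 8.76 and 8.29 in WT quadriceps, and between 12.13 and 12.25 in all 6 soleus arrays. Myh4, the fast IIB myosin heavy chain, varied in soleus instead: 12.53, 12.48 and 12.73 in KO animals, against 10.90, 13.31 and 8.99 in WT animals. The KO values lay inside the WT range, and the difference of KO effects for Myh4, 1.44 (SE 0.85, limma adjusted p = 0.834), depended on single WT animals: it was 2.58 without WT animal 2257 and 0.38 without WT animal 2272. With fast fibre content as a covariate it was 0.52, but Myh4 is itself in that list, so the fit partly adjusts the gene for itself. In bulk muscle, fewer fibres of a type and less RNA per fibre cannot be told apart. Results are therefore also given with the within-animal difference of a fibre list's mean as a covariate, and without the 2 animals named.

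**Figure D1:**
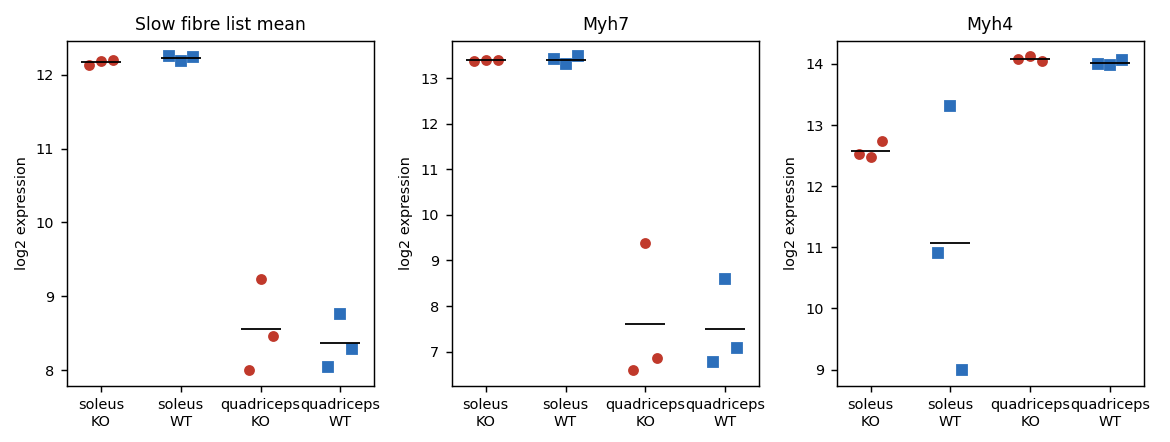
Levels on the log2 scale in each of the 12 arrays (points) with group means (lines) for the mean of the slow fibre list, the slow myosin Myh7 and the fast IIB myosin Myh4, by muscle and genotype. Slow fibre genes vary among quadriceps, from 8.004 to 9.23 in KO animals and from 8.05 to 8.76 in WT animals, while Myh4 varies among WT soleus, from 8.99 to 13.31.

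No gene passed the test of the difference of KO effects. Of 11963 genes tested, 0 (0%) reached a limma adjusted p under 0.05 (Benjamini-Hochberg), and 6 genes shared the smallest adjusted p, 0.189: Tnfsf10, Kif5b, Slbp, BC048679, Polk and Abhd1. At an unadjusted p under 0.05 there were 774 genes, 511 (4.27%) with a KO effect more positive in soleus and 263 (2.2%) with one more negative. The KO animals' differences all lay above the WT animals' for 960 genes (8.02%) and all below for 479 (4%). The median difference over all genes was 0.02, and 57.5% were positive. The lean towards positive values depends on scaling: of genes at an unadjusted p under 0.05, 66% were positive as deposited, 59.1% after quantile normalization was repeated (469 positive, 325 negative) and 52% with each array centred on its median (386 positive, 357 negative). For comparison, 22 genes passed for KO minus WT in soleus and 95 in quadriceps, a contrast in counts that does not itself show the muscles to differ. Every gene named below therefore missed the threshold for the difference, and its values are given as a description.

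The 12 leading genes of each sign were taken by smallest p among genes without overlap between the genotypes, so their separation is a consequence of that choice. In the positive set, KO minus WT in quadriceps had the opposite sign to the difference in 11 of 12 genes, KO minus WT in soleus had the same sign as the difference in 10, and the quadriceps value was the wider in 9. In the negative set the first 2 of these counts were 12 and 12, and the quadriceps value was the wider in 6. These counts describe estimates that the choice of genes favours, and many of them lie near 0, such as 0.0049 for Cpeb1 in soleus and 0.02 for Kif5b in quadriceps; nothing is read from them. All 24 kept their direction in each of 20 alternative settings in which they were tested, which the choice of genes largely fixes. Without overlap, leaving out animals cannot turn a sign. Settings that change only the error model, the pairing or the filter keep the same estimate.

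**Figure D2:**
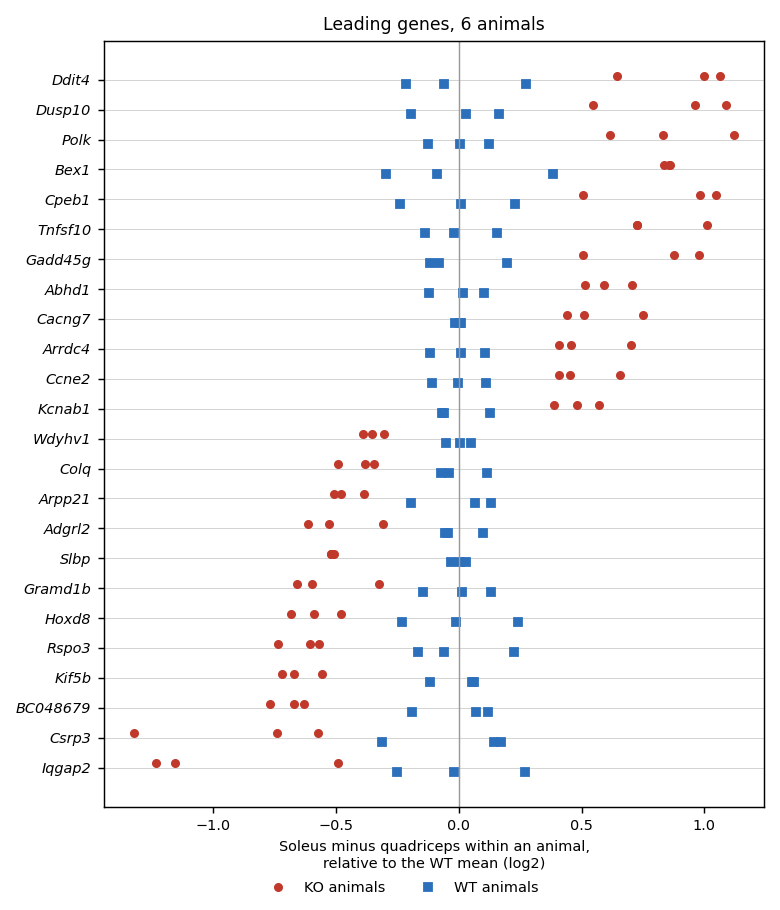
Soleus minus quadriceps within each animal (log2), relative to the mean of the WT animals, for the 24 leading genes, with KO animals as circles and WT animals as squares. KO animals lie above all WT animals for the 12 upper genes and below them for the 12 lower ones, as the choice of genes requires; Bex1 and Slbp vary least among KO animals (SD 0.01 each, n = 3).

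Of the leading positive genes, Ddit4, an inhibitor of mTORC1 induced by low oxygen and glucocorticoids, differed between soleus and quadriceps by -0.15, -0.21 and -0.57 in KO animals, against -1.42, -1.27 and -0.94 in WT animals. In WT mice it was thus lower in soleus, and in KO mice the gap was narrower in all 3. Its levels in soleus were 9.01, 9.36 and 8.15 in KO animals and 8.44, 9.03 and 8.50 in WT animals, and in quadriceps 9.16, 9.57 and 8.72 in KO animals and 9.86, 10.30 and 9.43 in WT animals. Both genotypes overlapped within each muscle, and only the within-animal difference separated them (difference of KO effects 0.90, SE 0.15, limma adjusted p = 0.247). Gadd45g, a stress-inducible binding partner of cell-cycle and MAP kinase regulators, had a similar makeup: -1.24, -0.77 and -0.88 within KO animals, against -1.87, -1.56 and -1.83 within WT animals, on soleus levels that spread from 8.22 to 10.08 among KO animals alone. The difference was 0.79 (SE 0.14, limma adjusted p = 0.264).

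Tnfsf10 encodes TRAIL, a death-inducing ligand of the tumour necrosis factor family. It stood at 7.70, 7.70 and 7.53 in KO soleus, against 7.06, 6.99 and 7.21 in WT soleus, and at 8.08, 7.80 and 7.91 in KO quadriceps, against 8.31, 7.95 and 8.34 in WT quadriceps. KO soleus lay above WT soleus without overlap while KO quadriceps lay below 2 of 3 WT arrays, and KO minus WT was 0.55 in soleus and -0.27 in quadriceps. The within-animal gap was -0.29 ± 0.16 in KO animals and -1.11 ± 0.15 in WT animals (SD, n = 3 each), a difference of 0.82 (95% interval 0.57 to 1.07). Dusp10, a phosphatase that inactivates the p38 and JNK kinases, was higher in soleus than in quadriceps in KO animals (0.49, 0.62 and 0.08) and lower in soleus in WT animals (-0.66, -0.44 and -0.30), a difference of 0.86 (SE 0.15). Arrdc4, an arrestin-domain protein related to the glucose uptake inhibitor TXNIP, gave -0.05 ± 0.16 in KO animals and -0.57 ± 0.11 in WT animals (SD, n = 3 each), a difference of 0.52.

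Polk, the translesion DNA polymerase kappa, read 6.94, 7.03 and 6.80 in KO soleus, against 7.20, 7.05 and 6.92 in WT soleus. In quadriceps it read 7.98, 7.78 and 8.06 in KO animals, against 9.06, 8.81 and 8.92 in WT animals. KO minus WT was -0.13 in soleus, where the genotypes overlapped, whereas Polk fell in KO quadriceps without overlap (KO minus WT -0.99, limma adjusted p = 0.000772 for quadriceps alone). The difference of KO effects was 0.86 (95% interval 0.56 to 1.15). Cpeb1, which controls the poly(A) tails and translation of stored mRNAs, had the same layout, with KO minus WT at 0.0049 in soleus and -0.84 in quadriceps (limma adjusted p = 0.0104 for quadriceps alone) and a difference of 0.84. Ccne2, cyclin E2 of the entry into S phase, differed by 0.51 (SE 0.10), with KO minus WT at 0.33 in soleus and -0.17 in quadriceps.

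The remaining leading positive genes encode a hydrolase, channel subunits and a small adaptor. Abhd1, of the alpha/beta-hydrolase fold, was the 1 gene of the 24 that rose in both muscles of KO mice. It read 8.71, 8.96 and 8.62 in KO soleus against 6.98, 6.83 and 7.16 in WT soleus, and 7.97, 8.03 and 7.80 in KO quadriceps against 6.73, 6.72 and 6.83 in WT quadriceps. KO minus WT was 1.77 in soleus and 1.17 in quadriceps, both past the threshold (limma adjusted p = 2.57e-06 and 0.000119), and the difference between them was 0.60 (SE 0.09). Cacng7, a gamma subunit of calcium channels that also accompanies AMPA receptors, lay at 7.45 to 7.68 in KO soleus and 7.66 to 7.81 in WT soleus, and read 8.54, 8.26 and 8.27 in KO quadriceps against 8.997, 9.13 and 9.02 in WT quadriceps. It fell in KO quadriceps (limma adjusted p = 0.0023), and its difference was 0.57. Kcnab1, a beta subunit of voltage-gated potassium channels, differed by 0.48, with all 6 soleus arrays under the filter level. Its KO minus WT in quadriceps was -0.43 (limma adjusted p = 0.0364 for quadriceps alone). Bex1, an X-linked adaptor protein abundant in brain and regenerating muscle, gave soleus minus quadriceps values of 0.28, 0.28 and 0.26 in KO animals, against -0.87, -0.19 and -0.67 in WT animals, a difference of 0.85 (SE 0.15). Within each muscle the genotypes overlapped, at low levels of 6.62 to 7.73, and KO minus WT passed in neither (limma adjusted p = 0.641 in soleus and 0.363 in quadriceps).

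**Figure D3:**
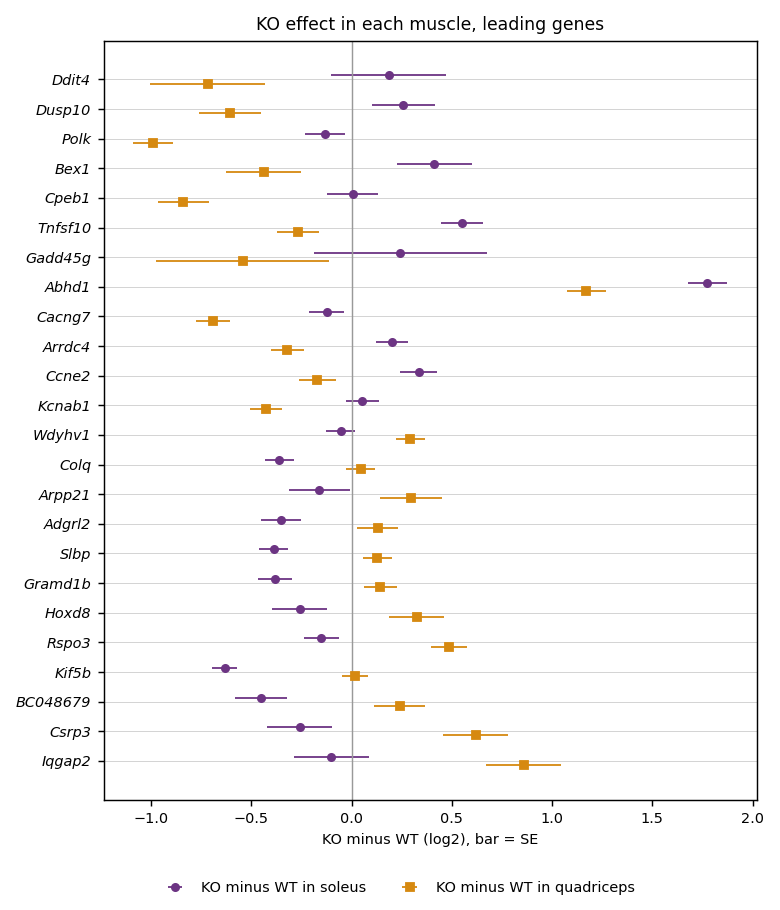
KO minus WT (log2) in soleus (circles) and in quadriceps (squares) for the 24 leading genes, with bars for the standard error. Abhd1 is far above 0 in both muscles (1.77 and 1.17), Polk and Cpeb1 lie below 0 in quadriceps (-0.99 and -0.84) and near 0 in soleus, and Kif5b lies below 0 in soleus (-0.63) and near 0 in quadriceps (0.02).

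Kif5b led the negative genes. It encodes the ubiquitous heavy chain of kinesin-1, the motor that carries mitochondria, vesicles and nuclei along microtubules. It stood at 10.46, 10.61 and 10.52 in KO soleus, against 11.26, 11.13 and 11.10 in WT soleus, and at 10.90, 10.89 and 10.92 in KO quadriceps, against 10.93, 10.79 and 10.95 in WT quadriceps. Kif5b fell in KO soleus without overlap, while quadriceps overlapped, with KO minus WT at -0.63 (limma adjusted p = 0.000931) and 0.02. Within animals, soleus was below quadriceps in all 3 KO mice (-0.45, -0.28 and -0.40) and above it in all 3 WT mice (0.33, 0.33 and 0.16). The difference was -0.65 (95% interval -0.85 to -0.45, limma adjusted p = 0.189). When all 12 arrays were fitted with animal as a random replicate block, the adjusted p of Kif5b was 0.0427, and it was then the 1 gene to pass. Over the 20 alternatives the adjusted p lay between 0.0427 and 0.587 and the difference between -0.71 and -0.61. Kif5b was the 1 member of 13 tested kinesins, dyneins and cargo adaptors at an unadjusted p under 0.05. Among all genes, 2.2% had a negative difference at that p. The list's median was -0.03, and the highest value was that of Kif1b, a kinesin of mitochondria and synaptic vesicle precursors, at 0.12.

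Slbp, which binds the stem-loop of histone mRNAs, was below quadriceps in soleus by almost the same amount in each KO animal (-0.17, -0.16 and -0.17) and above it in each WT animal (0.37, 0.31 and 0.35). The difference was -0.52 (SE 0.07), at low levels of 6.58 to 7.16, and it was -0.28 when the probe sets of the gene were averaged. BC048679, for which no role is given here, was 1.28, 1.24 and 1.15 higher in soleus in KO animals and 1.99, 1.73 and 2.03 higher in WT animals, a difference of -0.69. Wdyhv1, an enzyme that deamidates N-terminal glutamine, was 1.14 ± 0.04 higher in soleus in KO animals and 1.49 ± 0.05 higher in WT animals (SD, n = 3 each). Hoxd8, a homeobox transcription factor, differed by -0.58, and Gramd1b, which moves cholesterol from the plasma membrane to the endoplasmic reticulum, by -0.53.

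Rspo3 and Colq, also among the leading negative genes, are described with their lists. Iqgap2, a scaffold of actin and small GTPases, had the widest difference of the 24, -0.96 (95% interval -1.41 to -0.51). In soleus it lay at 7.08 to 7.42 in KO animals and 7.17 to 7.44 in WT animals, which overlapped. In quadriceps it read 7.42, 8.38 and 7.97 in KO animals, against 7.19, 7.15 and 6.86 in WT animals, which did not overlap. Adgrl2, an adhesion receptor of the latrophilin family, differed by -0.48 and Arpp21, a phosphoprotein regulated by cyclic AMP, by -0.46. Csrp3, the muscle LIM protein of the Z-disc, was 3.33, 2.58 and 3.17 higher in soleus in KO animals and 4.08, 4.05 and 3.60 higher in WT animals. Its difference of -0.88 (SE 0.20) belongs to a slow fibre gene, and it was -0.59 without KO animal 2245 and WT animal 2257. With slow fibre content as a covariate it was -0.77, but Csrp3 is itself in that list, so the fit partly adjusts the gene for itself.

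Genes that take up and oxidise fatty acids held more members at an unadjusted p under 0.05 than any other of the 32 lists. The lists were chosen with earlier results of these data known, so this rank is only a description. Of 20 tested fatty acid genes, 17 had negative differences and the list's median was -0.19, against 0.02 over all genes. At an unadjusted p under 0.05 there were 11, all negative (2.2% of all genes), and in 12 the KO animals lay entirely below the WT animals (4% of all genes). None passed the adjusted threshold (smallest adjusted p 0.581). The mean of the list was higher in soleus than in quadriceps by 0.83, 0.83 and 0.75 in KO animals and by 1.00, 0.95 and 1.01 in WT animals, with no overlap. List means also separated by genotype for tricarboxylic acid cycle, oxidative phosphorylation, HIF target, translesion synthesis, growth and atrophy, and satellite cell genes. Such a separation was thus not particular to fatty acid genes. In soleus alone the genotypes overlapped, with fatty acid list means of 11.90, 11.94 and 11.86 in KO animals and 11.90, 11.94 and 11.99 in WT animals. The list mean in quadriceps was 11.07, 11.10 and 11.11 in KO animals, against 10.90, 10.995 and 10.98 in WT animals, so all 3 KO quadriceps were above the WT quadriceps. Adipocyte markers, 7 genes of fat cells, which also use fatty acid uptake genes such as Cd36 and Lpl, had list means of 9.16, 8.93 and 8.55 in KO soleus, against 8.33, 9.19 and 8.29 in WT soleus, and of 8.57, 8.37 and 8.32 in KO quadriceps, against 7.95, 7.99 and 8.51 in WT quadriceps. They overlapped in both muscles, with a median KO minus WT over the markers of 0.32 in soleus and 0.25 in quadriceps, and their part in the values of the fatty acid list was not tested. Over the fatty acid list that median was -0.04 in soleus and 0.14 in quadriceps.

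Uptake and transport genes took part in this pattern. Cd36, the fatty acid translocase, lay between 12.86 and 12.88 in KO soleus and between 12.77 and 12.89 in WT soleus. It read 11.60, 11.57 and 11.72 in KO quadriceps, against 11.33, 11.32 and 11.33 in WT quadriceps, a rise in quadriceps that passed on its own (KO minus WT 0.30, limma adjusted p = 0.0344). The difference was -0.28 (SE 0.08). Slc27a1, a fatty acid transport protein, differed by -0.34, Fabp3, the heart-type fatty acid binding protein, by -0.25, and Lpl, which frees fatty acids from circulating lipoproteins, by -0.36 with overlap between the genotypes. Slc25a20, which carries acylcarnitines into mitochondria, differed by -0.30.

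Most enzymes of beta-oxidation had the same sign. Acadl, the long-chain acyl-CoA dehydrogenase, was higher in soleus by 1.11, 0.96 and 0.86 in KO animals, against 1.44, 1.18 and 1.33 in WT animals, a difference of -0.34 (SE 0.10, limma adjusted p = 0.614). Hadhb, the thiolase subunit of the trifunctional protein, gave 0.90, 1.10 and 0.91 in KO animals, against 1.26, 1.27 and 1.26 in WT animals, a difference of -0.30 (SE 0.08). The electron acceptors Etfdh and Etfa differed by -0.22 and -0.21, Hadh by -0.24 and Decr1, the dienoyl-CoA reductase, by -0.18. The 3 members with positive differences were Ucp3, a mitochondrial carrier (0.10), Acads, the short-chain dehydrogenase (0.05), and Pdk4, the kinase that shuts off pyruvate dehydrogenase (0.0034), each with overlap.

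The list's median lay between -0.22 and -0.18 over the 20 alternatives. Settings that change only the error model, the pairing or the filter leave it at -0.19 by construction. In settings where the median could move, it was -0.20 with slow fibre content as a covariate (9 of 20 at an unadjusted p under 0.05). It was -0.18 with fast fibre content as a covariate (7 of 20) and -0.22 without KO animal 2245 and WT animal 2257 (8 of 20). The count of 11 became 5 without WT animal 2255, 7 without KO animal 2266, and 7 in the fits with no replicate block, with a replicate block by title number and with a trended and robust prior.

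**Figure D4:**
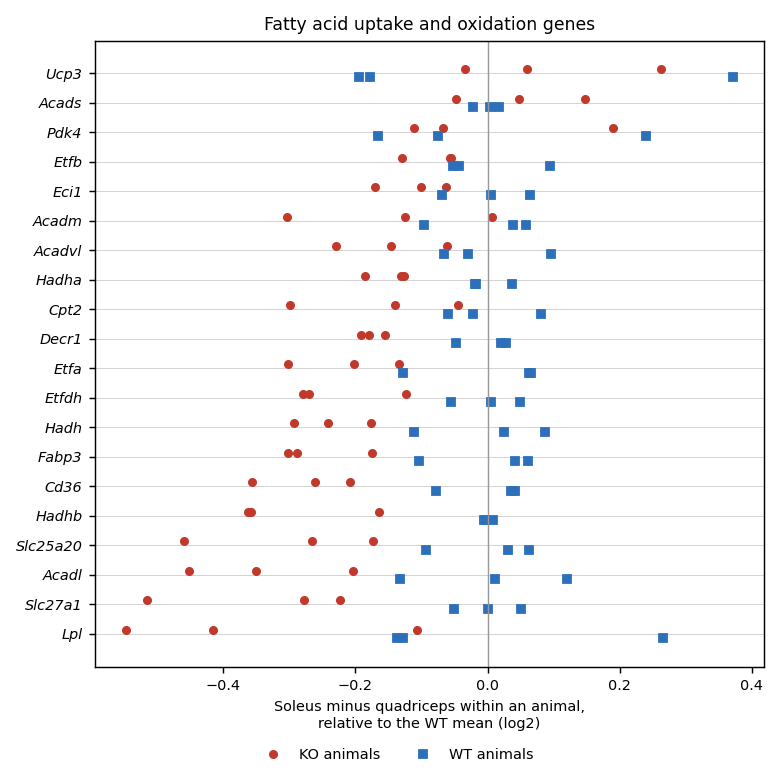
Soleus minus quadriceps within each animal (log2), relative to the mean of the WT animals, for the 20 tested genes of fatty acid uptake and oxidation, with KO animals as circles and WT animals as squares. In 12 of the 20 genes the 3 KO animals lie below all 3 WT animals.

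Mitochondrial genes downstream of beta-oxidation had smaller differences, mostly of the same sign. Of 20 tested genes of the tricarboxylic acid cycle, 19 had negative differences, whereas 57.5% of all genes were positive. The median was -0.10, and 3 were at an unadjusted p under 0.05, all negative (2.2% of all genes). Without KO animal 2244 the median was -0.04, with 17 negative and 2 at that p, and without WT animal 2255 it was -0.07, with 17 negative and 1 at that p. Idh2, the mitochondrial NADP-dependent isocitrate dehydrogenase, was higher in soleus by 2.03, 2.07 and 1.72 in KO animals, against 2.47, 2.17 and 2.27 in WT animals, a difference of -0.36 (SE 0.12). Dld, the E3 subunit shared by 2-oxoacid dehydrogenases, differed by -0.26 and Pdhb, of pyruvate dehydrogenase, by -0.19. Of 21 oxidative phosphorylation genes, 18 were negative, the median was -0.08 and none was at an unadjusted p under 0.05; the widest values were -0.15 for Ndufa9 and -0.14 for Ndufs1, both subunits of complex I. Of 23 regulators of fibre type and mitochondria, 12 were positive, with Ppargc1a, the coactivator PGC-1alpha, at -0.20 (SE 0.15) and Eya1, a SIX-family cofactor of fast fibres, at 0.25 (unadjusted p = 0.043).

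Slow fibre genes gave a median of -0.20 over 17 tested, but this value depended on single animals. The median was 0.11 without KO animal 2245, -0.0092 without WT animal 2255, 1.29e-06 without WT animal 2272, and between -0.48 and -0.39 without any 1 of the other 3 animals. With slow fibre content as a covariate the median was 0.08. That covariate is the mean of this same list, so it removes the list's mean shift by construction, and nothing is read from it here. Members spread widely: Myl2, the slow regulatory light chain, stood at -0.97 (SE 0.67), Myoz2, a Z-disc protein that binds calcineurin, at -0.93 (SE 0.32) and Ankrd2, a stretch-responsive ankyrin repeat protein, at -0.59 (SE 0.18). Pln, phospholamban, an inhibitor of the calcium pump, stood at 0.67 (SE 0.19): soleus exceeded quadriceps by 1.27, 1.15 and 1.05 in KO animals, against 0.70, 0.79 and -0.03 in WT animals. Sln, sarcolipin, another pump inhibitor, stood at 0.41 with overlap. The 15 fast fibre genes had a median of 0.02 and none at an unadjusted p under 0.05, with Actn3, the fast-fibre actinin, at 0.43 (SE 0.44), the IIX myosin Myh1 at -0.13 and the IIA myosin Myh2, kept outside the lists, at -0.42 (SE 0.20).

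Of 27 HIF target genes tested, 12 were positive and 15 negative, with a median of -0.02. At an unadjusted p under 0.05 there were 3 positive members (4.27% of all genes) and 1 negative member (2.2% of all genes). The median lay on the other side of 0, between 0.00062 and 0.01, when any 1 animal was left out. The list mean of soleus minus quadriceps was -0.014, -0.046 and -0.015 in KO animals, against -0.12, -0.076 and -0.070 in WT animals, so the KO animals lay above the WT animals while the median over genes was below 0. The 2 widest members, Pfkfb3 (1.17) and Ddit4 (0.90), were both positive and weigh more on a mean than on a median. A list mean without them was not taken, so no shift of the list as a whole is read from it. The members at that p were Ddit4, Pfkfb3 and Slc2a1 on the positive side and Stc2 on the negative side. The 250 bases before the annotated start of Ddit4, Slc2a1 and Pfkfb3, of the oxygen sensor Egln3 and of the leading genes Gadd45g and Arrdc4 are printed because each holds the HIF core ACGTG on one strand or the other (CACGT when read on the printed strand), printed in capitals; where the 2 overlap they give CACGTG, which is also the E-box of bHLH factors such as the clock proteins. Sequences are from RefSeq on GRCm38.p6, 5′ to 3′ on the gene's strand.
Ddit4, chr10:59951771-59952020, minus strand: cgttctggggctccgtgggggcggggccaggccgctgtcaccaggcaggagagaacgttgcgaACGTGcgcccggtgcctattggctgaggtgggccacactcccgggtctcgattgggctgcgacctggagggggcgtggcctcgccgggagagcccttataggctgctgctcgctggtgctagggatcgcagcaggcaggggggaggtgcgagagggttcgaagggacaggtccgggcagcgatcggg
Slc2a1, chr4:119108495-119108744, plus strand: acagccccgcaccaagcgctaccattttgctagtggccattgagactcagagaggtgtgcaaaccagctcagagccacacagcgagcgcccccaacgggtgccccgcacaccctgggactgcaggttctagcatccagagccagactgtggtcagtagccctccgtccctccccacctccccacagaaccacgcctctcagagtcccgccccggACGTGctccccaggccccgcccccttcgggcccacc
Pfkfb3, chr2:11553930-11554179, minus strand: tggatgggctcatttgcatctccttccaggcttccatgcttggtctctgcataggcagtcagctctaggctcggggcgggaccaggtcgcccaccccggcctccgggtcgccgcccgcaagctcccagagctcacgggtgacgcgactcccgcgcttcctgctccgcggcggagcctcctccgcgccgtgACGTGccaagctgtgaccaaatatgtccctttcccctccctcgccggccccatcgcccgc
Egln3, chr12:54203875-54204124, minus strand: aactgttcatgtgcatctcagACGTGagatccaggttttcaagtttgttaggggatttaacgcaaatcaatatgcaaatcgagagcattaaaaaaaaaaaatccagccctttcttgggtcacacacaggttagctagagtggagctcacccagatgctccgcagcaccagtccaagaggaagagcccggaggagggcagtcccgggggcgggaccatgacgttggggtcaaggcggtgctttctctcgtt
Gadd45g, chr13:51846425-51846674, plus strand: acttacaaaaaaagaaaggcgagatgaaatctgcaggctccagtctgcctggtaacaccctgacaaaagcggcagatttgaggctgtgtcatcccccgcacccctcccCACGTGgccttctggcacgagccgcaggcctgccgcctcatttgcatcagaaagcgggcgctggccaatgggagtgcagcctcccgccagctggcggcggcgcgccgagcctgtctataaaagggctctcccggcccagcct
Arrdc4, chr7:68749239-68749488, minus strand: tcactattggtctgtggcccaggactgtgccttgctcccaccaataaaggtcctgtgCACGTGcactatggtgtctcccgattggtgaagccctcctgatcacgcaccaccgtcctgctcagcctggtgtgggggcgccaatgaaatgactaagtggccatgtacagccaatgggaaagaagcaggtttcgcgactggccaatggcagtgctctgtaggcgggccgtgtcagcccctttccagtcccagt

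Relative to the start, the first base of the core is at -187 in Ddit4, -36 in Slc2a1, -60 in the printed start of Pfkfb3 and -229 in Egln3, and that of the palindrome CACGTG at -142 in Gadd45g and -193 in Arrdc4. Pfkfb3 has 2 annotated starts, each with a core. Stc2 holds no ACGTG or CACGT in this window, while Cited2, Ppp1r3c and some annotated starts of Kcnab1 hold such a match and are not printed. Only these letters were searched, marked and counted as the core. Other forms such as GCGTG, which the Stc2 window holds, were not. In this window, on either strand, 25% of 9530 tested genes with a promoter in the table hold the core and 9.96% the palindrome. The core was found in 4 of 10 matched leading positive genes, 0 of 7 matched leading negative genes and 12 of 19 matched HIF targets (63.2%). A match describes the letters in this window and does not show that a factor binds there.

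Pfkfb3, which makes the fructose 2,6-bisphosphate that drives glycolysis, had the widest difference among HIF targets. It read 8.27, 8.26 and 8.12 in KO soleus, against 7.71, 9.14 and 7.72 in WT soleus, and 10.35, 10.40 and 10.51 in KO quadriceps, against 11.29, 11.47 and 11.93 in WT quadriceps. Quadriceps separated by genotype, but WT animal 2257 was high in soleus, and the within-animal differences overlapped (-2.09, -2.14 and -2.39 in KO animals, against -3.58, -2.33 and -4.21 in WT animals). The difference was 1.17 (SE 0.38, limma adjusted p = 0.665), and it was 1.69 without WT animal 2257, 0.75 without WT animal 2272 and 0.77 with fast fibre content as a covariate; the adjusted p lay between 0.058 and 1 over the alternatives. Slc2a1, the basal glucose transporter GLUT1, was higher in soleus by 1.03, 0.92 and 1.23 in KO animals, against 0.56, 0.82 and 0.65 in WT animals, a difference of 0.38 (SE 0.11). Stc2, the secreted glycoprotein stanniocalcin-2, had the opposite sign and rose in KO quadriceps: it read 8.94, 8.50 and 8.44 in KO quadriceps, against 7.88, 7.88 and 7.78 in WT quadriceps (limma adjusted p = 0.0214 for quadriceps alone), with a difference of KO effects of -0.53 (SE 0.19). Vegfa, the main vascular growth factor, was 0.28, 0.14 and 0.40 higher in soleus in KO animals and 0.37, 0.12 and 0.42 higher in WT animals, a difference of -0.03 with a 95% interval of -0.27 to 0.21; its sign turned under both fibre covariates.

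Among the oxygen sensors and their targets of action, Egln3, the sister hydroxylase that is itself a HIF target, was higher in soleus by 1.28, 1.07 and 1.20 in KO animals, against 1.82, 1.35 and 1.80 in WT animals. Its difference was -0.48 (SE 0.13, limma adjusted p = 0.581). Egln2, the remaining hydroxylase of the family, gave 0.0084 (95% interval -0.19 to 0.21), with a sign that turned under 2 scalings. Hif1a gave -0.10 (95% interval -0.27 to 0.07), and Epas1, which encodes HIF-2alpha, gave -0.05 (95% interval -0.26 to 0.16). Cited2, an inhibitor that competes with HIF for its coactivators, gave 0.45 (SE 0.15) with overlap. Over the 9 tested members the median was -0.05, with 1 positive and 1 negative member at an unadjusted p under 0.05 (4.27% and 2.2% of all genes).

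Of 19 glycolytic genes tested, 9 were positive and 10 negative, with a median of -0.01. Ldhb, the heart-type lactate dehydrogenase subunit of oxidative fibres, was the member at an unadjusted p under 0.05: it was higher in soleus by 2.96, 2.87 and 2.40 in KO animals, against 3.64, 3.21 and 3.03 in WT animals, a difference of -0.55 (SE 0.18). Slc16a1, the lactate transporter MCT1, stood at -0.22. Of 15 glycogen genes the median was -0.06, with Ppp1r3c, a subunit that brings protein phosphatase 1 to glycogen, at 0.37 (SE 0.09, limma adjusted p = 0.498). Its soleus minus quadriceps values were -0.76, -0.67 and -0.63 in KO animals, against -1.15, -1.13 and -0.89 in WT animals, with no overlap. Phkg1, the catalytic subunit of muscle phosphorylase kinase, stood at -0.15.

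Genes of the neuromuscular junction gave 8 negative and 4 positive members among 12, with a median of -0.04. Colq, the collagen tail that anchors acetylcholinesterase at the synapse, read 8.15, 8.10 and 8.21 in KO soleus, against 8.56, 8.36 and 8.63 in WT soleus, and 7.53, 7.60 and 7.56 in KO quadriceps, against 7.60, 7.44 and 7.51 in WT quadriceps. Soleus separated and quadriceps overlapped, and the difference was -0.41 (SE 0.09, limma adjusted p = 0.425). Chrna1, the alpha subunit of the muscle acetylcholine receptor, was higher in soleus by 0.86, 0.65 and 1.55 in KO animals, against 1.61, 1.57 and 1.55 in WT animals; KO animal 2266 was close to the WT animals, and the difference was -0.56 (SE 0.19). Dok7, an activator of the receptor kinase MuSK, stood at 0.27 with overlap.

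Secreted and growth-related genes had differences of either sign. Igf1, insulin-like growth factor 1, gave soleus minus quadriceps values of 0.42, 0.24 and -0.36 in KO animals, against -0.48, -0.42 and -0.90 in WT animals, a difference of 0.70 (SE 0.20, limma adjusted p = 0.581). Soleus levels overlapped, while quadriceps levels were 8.32, 8.77 and 8.24 in KO animals and 8.97, 8.96 and 9.33 in WT animals. Ostn, the muscle peptide musclin, read 8.94, 8.86 and 9.42 in KO soleus, against 9.85, 9.90 and 10.25 in WT soleus, and fell in KO soleus, with KO minus WT at -0.92 in soleus (limma adjusted p = 0.0141) and -0.45 in quadriceps, where the genotypes did not overlap either. Its difference was -0.47 (SE 0.14). Fst, follistatin, which binds myostatin, stood at -0.32 and Sesn1, an mTORC1-restraining sestrin, at 0.32, both without overlap. Over 18 growth and atrophy genes the median was -0.0047.

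Rspo3, a secreted amplifier of Wnt signalling, was 2.63, 2.46 and 2.59 higher in soleus in KO animals, against 3.42, 3.03 and 3.13 higher in WT animals, a difference of -0.64 (SE 0.11, limma adjusted p = 0.264). All 6 quadriceps arrays were under the filter level, at 6.19, 6.32 and 6.20 in KO animals and 5.73, 5.87 and 5.65 in WT animals. At these low levels KO minus WT in quadriceps was 0.49 (limma adjusted p = 0.0295 for quadriceps alone). Of 12 Wnt and R-spondin genes, Fzd7, a Wnt receptor, was the other member at an unadjusted p under 0.05, at 0.37 (SE 0.12), and the median was -0.06. Of 14 iron and haem genes the median was -0.02. Slc11a2, the iron importer DMT1, read 8.70, 8.56 and 8.53 in KO quadriceps, against 8.83, 9.02 and 9.11 in WT quadriceps. KO minus WT there was -0.39 (limma adjusted p = 0.0429 for quadriceps alone). The difference of KO effects for Slc11a2 was 0.35 (SE 0.11), and Mb, myoglobin, stood at -0.25 (SE 0.10).

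Among all genes, 4.27% had a positive and 2.2% a negative difference at an unadjusted p under 0.05. The other functional lists had medians near that of all genes and few members at that p. These were 1 of 21 calcium release and signalling genes (Asph, whose products include junctin, 0.18), 2 of 9 translesion synthesis genes (Polk and Mad2l2, 0.20), 1 of 15 interferon response genes (Tnfsf10), 2 of 15 angiogenic signalling genes (Flt4, 0.29, and Fgf2, -0.21), 1 of 16 circadian clock genes (Cry1, 0.18), 1 of 10 kynurenine and aminotransferase genes (Gpt, -0.20), 1 of 11 satellite cell and regeneration genes (Myf6, -0.23) and 0 of 13 immediate early and heat shock genes. Their medians ran from -0.04 to 0.04, and from -0.07 to 0.09 when any 1 animal was left out. The translesion synthesis genes other than these 2 lay between -0.03 and 0.13.

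Markers of other cell types were examined in the same way, beside the same shares of all genes. No member was at an unadjusted p under 0.05 among 9 endothelial, 8 tendon, 7 adipocyte, 2 erythroid and 3 sex-linked genes tested. There was 1 each among 9 smooth muscle and pericyte markers (Acta2, smooth muscle actin, -0.21), 11 fibroblast and matrix markers (Postn, periostin, -0.57), 10 leukocyte markers (Cd3e, -0.21) and 3 nerve and Schwann cell markers (Mbp, myelin basic protein, -0.35). Medians of the lists of at least 7 tested genes ran from -0.07 to -0.0034, apart from -0.13 for fibroblast and matrix markers. Several of these medians depended on single animals. The tendon median ran from -0.30 without KO animal 2244 to 0.18 without WT animal 2272, the leukocyte median from -0.18 without KO animal 2244 to 0.25 without KO animal 2266, and the adipocyte median from -0.28 without WT animal 2272 to 0.44 without WT animal 2257. The fibroblast and matrix median ran from -0.29 without WT animal 2255 to 0.02 without WT animal 2272, whereas endothelial medians stayed between -0.05 and 0.05. Periostin read 8.65, 9.67 and 7.56 in KO quadriceps, against 8.08, 7.97 and 8.02 in WT quadriceps, and the mean of the matrix list was 9.63 to 10.44 in KO quadriceps and 9.65 to 10.01 in WT quadriceps, which overlapped. The part of these markers in the results above was not tested.

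**Figure D5:**
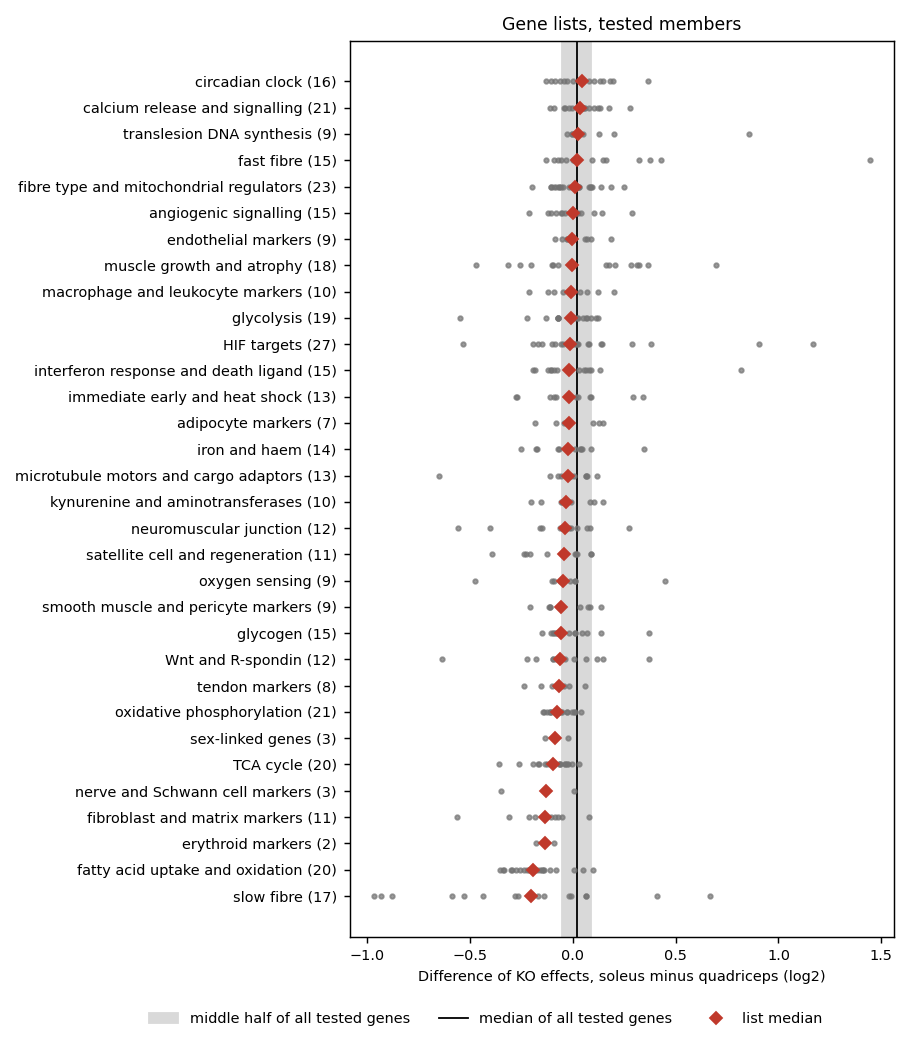
Difference of KO effects, soleus minus quadriceps (log2), for each tested gene (grey points) of 32 lists, with list medians as diamonds, the median of all 11963 tested genes as a line (0.02) and their middle range between the quartiles as a band (-0.05 to 0.09). Slow fibre (-0.20) and fatty acid genes (-0.19) have the lowest medians; the fatty acid points lie close together, from -0.36 to 0.10, and the slow fibre points spread from -0.97 to 0.67.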

How the data were processed

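Gene expression in soleus and quadriceps of 3 KO and 3 WT mice was read on Affymetrix arrays. The authors deposited log2 values made with RMA (background correction, quantile normalization and probe summary), per the submitters' processing notes; the sources used here give neither its version nor the set of arrays it ran on, and scanner files took no part. The platform annotation gave a single gene for 21789 of 35556 probe sets and several for 1621, and did not list 12146. Symbols of 21698 were updated by gene identifier (GRCm38.p6 table), and the probe set with the highest mean stood for each of 19938 genes. A mean under the 40th percentile, 6.54, left a gene out.

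Within-animal differences were fitted with limma 3.58.1 in R 4.3.3 (lmFit, eBayes, Benjamini-Hochberg over all 11963 genes; 4 residual and 5.12 prior degrees of freedom). KO minus WT in each muscle came from a 12-array fit with animal as a random block (consensus correlation 0.177). The pairing of arrays rests on shared numbers in the descriptions, not on replicate numbers in titles, which differ between muscles for WT; deviations of paired arrays from their group means correlated at r = 0.00199 to 0.386, above 0.1 in 4 of 6 pairs. Fits were tested on simulated data with planted changes wider than any difference found here (1.44 and -0.97 at the widest). That test does not show whether smaller differences would be found.

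Named genes were the 12 of each sign with the smallest p and no overlap between genotypes (predicted genes, microRNA, small nucleolar RNA, olfactory and vomeronasal receptor genes left out), oxygen sensors, Vegfa, fibre myosins, and the 2 widest tested members of each of 32 lists; further list members were named after their values were seen. The comparison, members and lists were chosen with earlier results of these data known. There were 20 alternatives, 3 of them added after seeing the data. Results are descriptive where no test is named, and no set test was run.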

Additional observations from a re-analysis of the deposited data

How the results depend on the processing

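The count of genes past the adjusted threshold was 0 in 19 of 20 alternatives and 1 (Kif5b) with animal as a random replicate block over all 12 arrays. It was 0 in every fit that left out 1 animal. With no replicate block, 0 genes passed and 546 were at an unadjusted p under 0.05, and with a replicate block by title number 0 and 629, beside 774 in the paired fit. Over all alternatives that count ran from 522 without WT animal 2255 to 1123 with no filter on low values. Added after seeing the data were the fast fibre covariate, the fit without KO animal 2245 and WT animal 2257, and a filter on the probe set percentile. Of 90 named genes, 79 kept their sign throughout. The 24 leading genes are among them, which their choice without overlap largely fixes. Signs turned for Egln2 with quantile normalization repeated (-0.020) and arrays centred on their median (-0.013), for Alas2 with weights per animal (0.039), and under the slow fibre covariate for Vegfa (0.026) and Myh7 (0.48). Under the fast fibre covariate they turned for Vegfa (0.034), Myh7 (0.17), Actn3 (-0.048), Slc4a1 (0.0043), Alas2 (0.26) and Plin1 (-0.23), and without KO animal 2245 and WT animal 2257 for Myh7 (0.13). Leaving out 1 animal at a time gave ranges that cross 0: -0.14 to 0.99 for Actn3, -0.40 to 0.41 for Alas2, -0.026 to 0.61 for Cd74, -0.043 to 0.057 for Egln2, -0.11 to 0.018 for Epas1, -0.53 to 0.12 for Kera, -0.75 to 0.74 for Myh7, -0.28 to 0.61 for Plin1, -0.35 to 0.11 for Slc4a1, -0.37 to 0.11 for Tnmd and -0.12 to 0.039 for Vegfa. The cause of these turns was not tested. Myh7 is in the slow fibre list and Actn3 in the fast fibre list, so the covariate from its own list partly adjusts each gene for itself. Leaving out 1 animal at a time, medians of several lists with small values also crossed 0, such as -0.04 to 0.04 for glycolysis (-0.01 with all animals), -0.09 to 0.02 for glycogen (-0.06) and -0.07 to 0.03 for neuromuscular junction genes (-0.04). Genes near the filter level, such as Kcnab1 and Polk in soleus and Rspo3 and Ostn in quadriceps, are limited by low signal.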

Other observations

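In 2 places, leading genes of opposite sign lay almost side by side in the genome. On chromosome 13, Polk (0.86) and Iqgap2 (-0.96) had 1 tested gene between them, the centriole gene Poc5, at 0.02 (SE 0.14). In quadriceps, KO minus WT was -0.99 for Polk, -0.04 for Poc5 and 0.86 for Iqgap2. On chromosome 7, Cpeb1 (0.84) and BC048679 (-0.69) had Ap3b2, a subunit of an adaptor complex of neuronal vesicles, between them at -0.15 (SE 0.17). Of the 19 pairs of leading genes that share a chromosome, these were the 2 with at most 10 tested genes between them. Gene order is that of the GRCm38.p6 table, and no test of these pairs was run.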
